A study of Mus musculus with 12 samples.

Results

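Potassium channel genes were examined in the adrenal gland of mice given the sweetener aspartame, the NMDA receptor antagonist CGP 39551, or both. The members were all genes whose symbol starts with Kcn among the probe sets that the array's annotation assigns to a single gene. These were 86 of 16244 genes, and 84 of 15900 genes passed the filter that a gene reach a mean log2 signal of 6 in at least 1 group. Only Kcna2 had more than 1 probe set among the 87 Kcn probe sets, and its brighter probe set was used. Kcne2 and Kcnt2 stayed below 6 in every group and were not tested.

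Potassium channels let potassium leave a cell and so pull its membrane potential down, which ends action potentials and sets the resting voltage. In the adrenal cortex, leak channels of the tandem-pore class hold aldosterone-producing glomerulosa cells at a very negative voltage, and angiotensin II and external potassium act by closing them or shifting that voltage. Chromaffin cells of the medulla fire action potentials that voltage-gated and calcium-activated potassium channels shape. Neurons and glia use a far wider set, including fast Shaw-type channels, axonal Shaker-type channels and the inward rectifiers by which glia take up potassium.

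Adrenals came from male C57Bl/6J mice at 21 weeks of age, and all 4 groups were kept on standard chow. ASP mice had aspartame at 46 mg/kg in the drinking water from before birth into adulthood. ASP+CGP mice had the same aspartame plus CGP 39551 at 5 mg/kg during development, from conception to weaning. CGP mice had only CGP 39551 over that period, and control (CON) mice had neither. The RNA of all mice of a group was pooled and hybridised to 3 Affymetrix Mouse Gene 1.0 ST arrays. The p-values therefore measure the spread between 3 arrays of 1 pool and not the spread between mice. All signals are log2 values, and a difference of 1 is a doubling. A gene was called when limma's adjusted p was below 0.05 and the change as fitted was at least 1.4-fold. Where a group mean was below 6, the fold printed was taken against 6 and is given as "at least". A called gene can therefore have a printed fold below 1.4. Against CON this held for Kcna4, Kcnb2, Kcnh7 and Kcnv1 in ASP and for Kcnv1 in ASP+CGP. Log2 differences, medians and interactions are as fitted unless a value says otherwise.

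The arrays of a pool agreed closely, with correlations of 0.989 to 0.995 over all probe sets and array medians of 7.84 to 7.94. Markers of the adrenal cortex were present in every pool, their mean over 11 genes lying between 12.51 and 12.55 on the ASP arrays, 12.64 and 12.68 on the ASP+CGP arrays, 12.74 and 12.79 on the CGP arrays, and 12.82 and 12.83 on the CON arrays. Over the 84 Kcn genes the median SD between arrays of a pool was 0.08 in ASP, 0.11 in ASP+CGP, 0.10 in CGP and 0.08 in CON. The widest spread was that of Kcnj14 in CGP (SD 0.43, n = 3), where array 3 stood at 7.04 and the other arrays at 6.24 and 6.36.

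The first comparison was of chronic aspartame alone with control. In ASP adrenals 35 of 84 Kcn genes were higher than in CON (41.7%), against 9.81% of all genes tested. In the same comparison 4 were lower (4.76%), against 8.13% of all genes tested. The median log2 difference was 0.32 over the Kcn genes and -0.10 over all genes. With signals below 6 set to 6 the Kcn median was 0.26. The rises were led by voltage-gated channels of fast-firing neurons and by the inward rectifier of glia, and the falls were those of Kcnk5, Kcnq1, Kcnn2 and Kcnk9. In 15 of the 35 the rise was at least 2-fold, and in 7 of them at least 4-fold.

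Markers of brain cells moved with the Kcn rises in ASP. All 16 neuron markers, all 10 tested oligodendrocyte markers and all 9 tested astrocyte markers were called higher in ASP than in CON. Of these, Nefm, Sv2b, Ermn, Opalin, Ugt8a and Gjb6 reached 6 only in ASP, so they could be tested only because they were higher there. The mean over the neuron markers lay between 10.15 and 10.20 on the ASP arrays, 7.75 and 7.82 on ASP+CGP, 7.72 and 7.73 on CGP, and 7.67 and 7.74 on CON. The mean over the astrocyte markers lay between 9.57 and 9.73 on the ASP arrays and between 7.17 and 7.23 on the CON arrays, and that over the oligodendrocyte markers between 9.19 and 9.40 on the ASP arrays and between 6.88 and 6.91 on the CON arrays. The mean over 11 chromaffin markers lay between 11.14 and 11.17 on the ASP arrays and between 11.10 and 11.14 on the CON arrays, but single markers moved both ways. Penk and Syt1 were higher in ASP, by 1.08 and 2.02, and Syt1 is on the neuron list too. Slc18a1 and Phox2a were lower (-0.74 and -0.71), and the median difference over the chromaffin list was -0.36. Of the 11 tested markers of the adrenal cortex, 4 (Cyp11b2, Nr5a1, Fdx1 and Mrap) were lower in ASP and 0 higher, with a median difference of -0.24. Endothelial markers lay between 9.72 and 9.79 on the ASP arrays and between 10.21 and 10.26 on the CON arrays, lower in 5 of 8 genes, and hepatocyte markers were lower in 9 of 11. The part of these other cells in the Kcn differences was not tested, nor was whether RNA of brain tissue entered the ASP pool. In RNA of whole glands fewer cells of a type and less RNA per cell cannot be told apart.

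**Figure D1:**
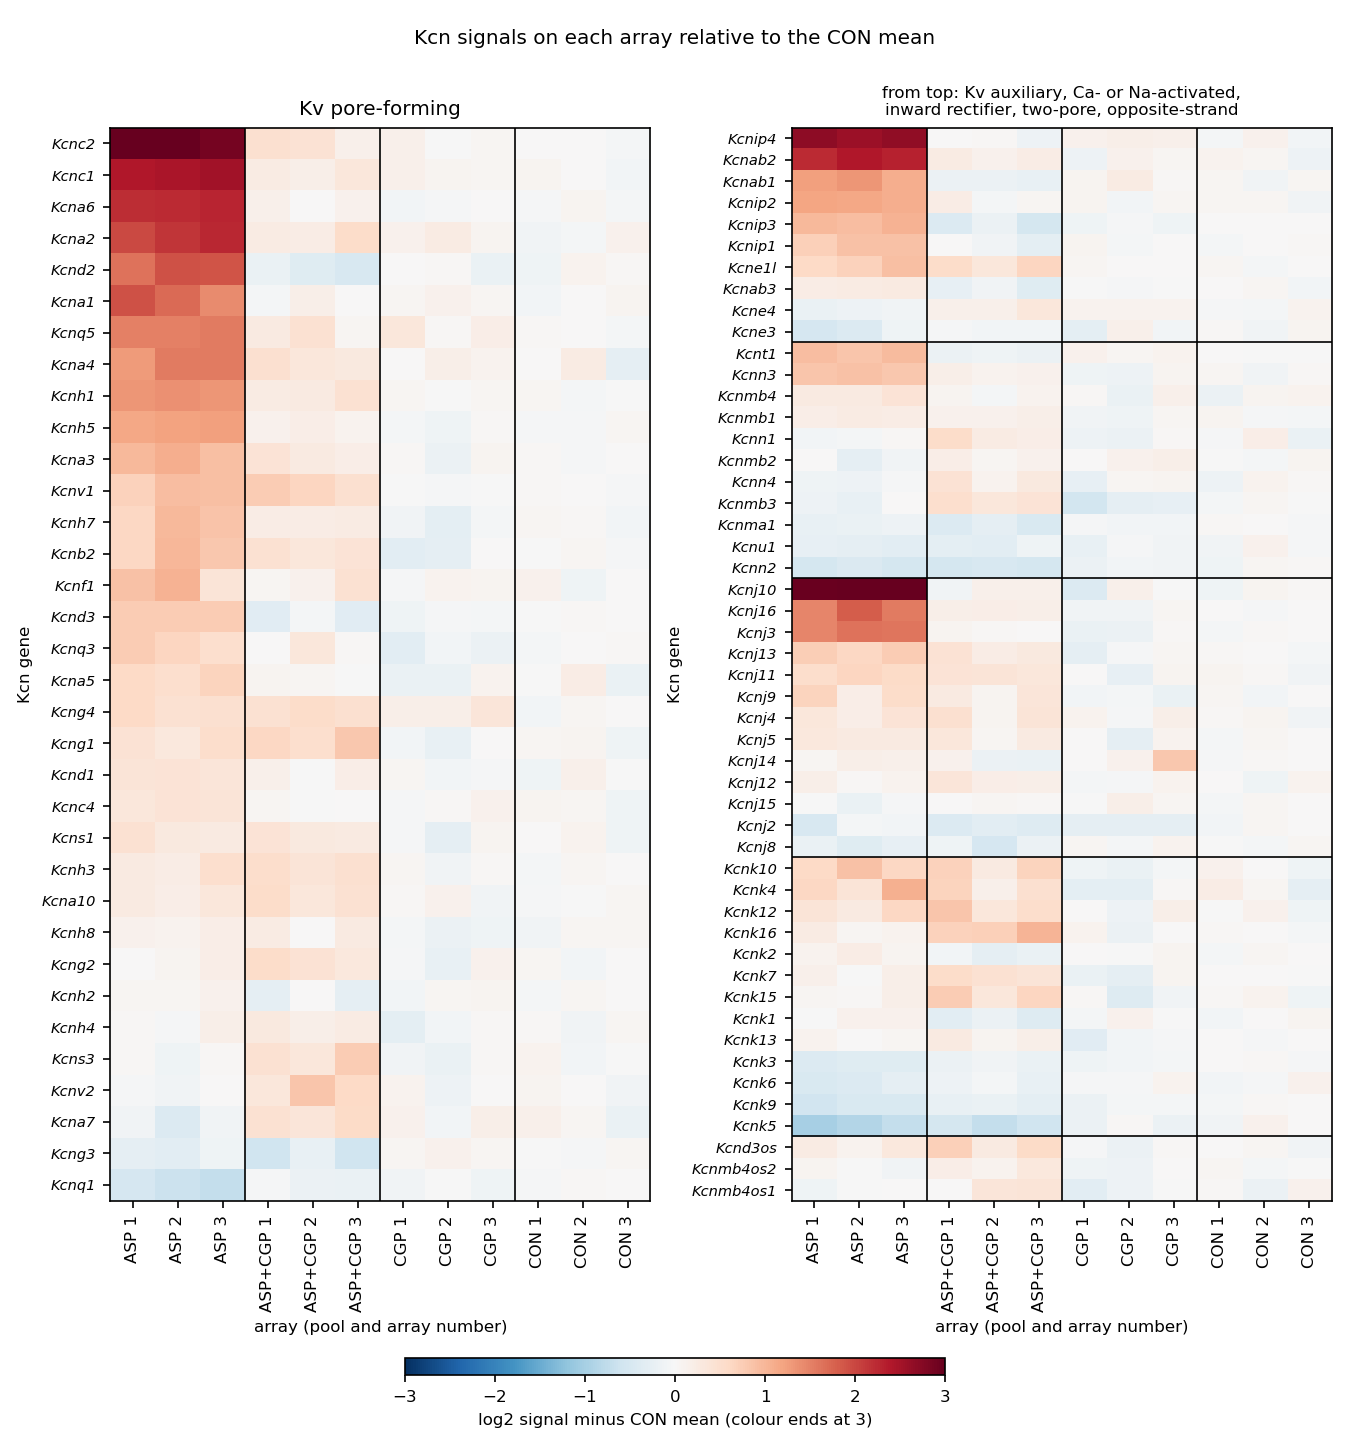
Log2 signal of each of the 84 tested Kcn genes on each of the 12 arrays, minus the CON mean of that gene; columns are arrays, rows are genes grouped by channel family and ordered within a family by the ASP difference, and red is above CON. The 3 ASP columns are red for most voltage-gated genes and their auxiliary subunits, with Kcnc2 and Kcnj10 about 3 above CON, while the CGP columns are pale apart from Kcnj14 on array 3.

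The genes Kcna4, Kcnb2, Kcnc2, Kcnh5, Kcnh7, Kcnip2, Kcnj16 and Kcnj5, 8 in all, reached 6 only in ASP, so a higher value in ASP was a condition of their being tested. Only Kcnv2 was admitted through ASP+CGP alone. Among the 70 Kcn genes whose CON mean was 6 or more, 25 were higher in ASP than in CON, 4 were lower, and the median difference was 0.23. Of all 14975 genes with such a CON mean 8.97% were higher and 8.57% lower, with a median of -0.11.

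The pore-forming voltage-gated subunits open on depolarisation and make up the largest family, with 34 genes tested. In ASP 19 of them were higher than in CON and 1 was lower, and their median difference was 0.61. With signals below 6 set to 6 the median was 0.38, and of the 25 with a CON mean of 6 or more 13 were higher. Kcnc2, a Shaw-type channel that lets inhibitory interneurons fire at high rates, had signals of 8.25, 8.39 and 8.06 on the ASP arrays, 5.67, 5.63 and 5.34 on ASP+CGP, 5.35, 5.18 and 5.25 on CGP, and 5.21, 5.21 and 5.14 on CON. Every ASP array lay more than 2 units above every other array, and the remaining 9 arrays were all below 6. The rise in ASP was at least 4.70-fold (log2 difference 3.04 ± 0.09 SE, adjusted p = 1.27e-12).

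Its relative Kcnc1 had signals of 8.79, 8.85 and 8.92 on the ASP arrays, 6.63, 6.56 and 6.74 on ASP+CGP, 6.54, 6.47 and 6.45 on CGP, and 6.48, 6.39 and 6.30 on CON. ASP was again separate from the other groups, 5.51-fold above CON (log2 difference 2.46 ± 0.07 SE, adjusted p = 3.18e-13). The last Shaw-type gene tested, Kcnc4, averaged 9.36 ± 0.04 in ASP and 8.98 ± 0.13 in CON (SD, n = 3 each), a difference of 0.37 that fell short of 1.4-fold.

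The Shaker-type genes Kcna1, Kcna2 and Kcna6 encode channels of axons and nerve terminals. Kcna6 had signals of 8.70, 8.72 and 8.78 on the ASP arrays, 6.64, 6.51 and 6.61 on ASP+CGP, 6.40, 6.46 and 6.50 on CGP, and 6.46, 6.57 and 6.44 on CON. Kcna2 had 10.24, 10.40 and 10.52 on the ASP arrays, 8.49, 8.48 and 8.79 on ASP+CGP, 8.37, 8.50 and 8.33 on CGP, and 8.15, 8.20 and 8.38 on CON. In both genes the ASP arrays lay apart from all others, 4.73-fold above CON for Kcna6 and 4.41-fold for Kcna2. Kcna1 was 3.20-fold higher. For Kcna2 the size depended on the probe set, since the dimmer of its probe sets gave a log2 difference of 0.78 where the brighter gave 2.14. Kcna3, which is also the main channel of T lymphocytes, was 1.98-fold higher, Kcna5 1.5-fold and Kcna4 at least 1.16-fold.

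Kcnd2 and Kcnd3 encode Shal-type channels, which carry the A-type current of dendrites. Kcnd2 had signals of 9.65, 9.93 and 9.90 on the ASP arrays, 7.83, 7.66 and 7.53 on ASP+CGP, 8.04, 8.05 and 7.81 on CGP, and 7.88, 8.12 and 8.05 on CON. It was 3.50-fold higher in ASP than in CON (log2 difference 1.81 ± 0.10 SE, adjusted p = 8.46e-10), and Kcnd3 was 1.69-fold higher. Of the M-current genes, which damp repeated firing, Kcnq5 was 2.87-fold and Kcnq3 1.55-fold higher. Of the ether-a-go-go class Kcnh1 was 2.53-fold, Kcnh5 at least 1.8-fold and Kcnh7 at least 1.10-fold higher. The electrically silent subunits, which form channels only together with Shab-type subunits, were also higher in 3 cases, Kcnf1 by 1.70-fold, Kcng4 by 1.41-fold and Kcnv1 by at least 1.26-fold.

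Of the 10 auxiliary subunits of voltage-gated channels, 7 were higher in ASP than in CON and 0 lower (median 0.90). Of the 7, Kcnip2 reached 6 only in ASP and could be tested only because it was higher there. Among the 9 with a CON mean of 6 or more, 6 were higher (median 0.83), where 8.97% of all such genes were. Kcnip4, a calcium-binding subunit that assembles with Shal-type channels, had signals of 9.50, 9.38 and 9.48 on the ASP arrays, 6.81, 6.85 and 6.65 on ASP+CGP, 6.94, 6.99 and 6.97 on CGP, and 6.76, 6.94 and 6.72 on CON. Its ASP signals stood apart from all others, 6.26-fold above CON (log2 difference 2.65 ± 0.07 SE, adjusted p = 2.97e-13). The other 3 genes of this type were also higher, Kcnip2 at least 2.08-fold, Kcnip3 1.97-fold and Kcnip1 1.77-fold. Kcnab2, a beta subunit of Shaker-type channels, had signals of 9.57, 9.73 and 9.63 on the ASP arrays, 7.57, 7.45 and 7.55 on ASP+CGP, 7.18, 7.45 and 7.39 on CGP, and 7.44, 7.38 and 7.17 on CON. It was 4.97-fold and its relative Kcnab1 2.32-fold higher in ASP than in CON, while Kcnab3 differed by 0.25 and was not called.

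The inward rectifiers pass potassium best near the resting voltage, and 5 of 13 were higher in ASP than in CON (median 0.31). Of the 5, Kcnj16 reached 6 only in ASP, and Kcnj13 only in ASP and ASP+CGP. Among the 10 with a CON mean of 6 or more, 3 were higher (median 0.22), where 8.97% of all such genes were. Kcnj10, through which astrocytes and oligodendrocytes take up potassium, had signals of 10.46, 10.60 and 10.54 on the ASP arrays, 7.40, 7.65 and 7.65 on ASP+CGP, 7.08, 7.65 and 7.49 on CGP, and 7.38, 7.58 and 7.54 on CON. The ASP arrays lay above all others by more than 2 units, and the other 3 groups overlapped. The rise was 8.17-fold (log2 difference 3.03 ± 0.12 SE, adjusted p = 1.46e-11). Kcnj16, which forms mixed channels with Kcnj10, was at least 2.04-fold higher. Kcnj3, a G protein-gated channel of neurons and heart, had signals of 7.54, 7.70 and 7.67 on the ASP arrays, 6.15, 6.10 and 6.08 on ASP+CGP, 5.86, 5.89 and 6.10 on CGP, and 6.01, 6.11 and 6.08 on CON. It was 2.97-fold higher in ASP than in CON, Kcnj13 at least 1.54-fold, and Kcnj11, the pore of the ATP-sensitive channel, 1.49-fold.

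Of 11 channel subunits activated by calcium or sodium, 2 were higher and 1 was lower (median -0.11). The sodium-activated channel Kcnt1 had signals of 8.78, 8.69 and 8.79 on the ASP arrays, 7.67, 7.71 and 7.68 on ASP+CGP, 7.97, 7.91 and 7.96 on CGP, and 7.86, 7.84 and 7.84 on CON. Kcnn3, a small-conductance calcium-activated channel, had 8.95, 8.99 and 8.94 on the ASP arrays, 8.30, 8.23 and 8.25 on ASP+CGP, 7.98, 7.96 and 8.20 on CGP, and 8.17, 8.02 and 8.16 on CON. ASP was the highest group for both, 1.88-fold above CON for Kcnt1 and 1.79-fold for Kcnn3, while Kcnn2, a relative of Kcnn3, was lower. Kcnn2 had signals of 9.54, 9.63 and 9.53 on the ASP arrays, 9.53, 9.59 and 9.54 on ASP+CGP, 9.89, 9.98 and 9.96 on CGP, and 9.94, 10.13 and 10.10 on CON. Both aspartame groups lay below both other groups, by 1.4-fold in ASP (log2 difference -0.49 ± 0.06 SE, adjusted p = 9.63e-06) and 1.42-fold in ASP+CGP against CON. Both calls were lost with median centring, cyclic loess and removal of the trend with signal level, and without CON replicate 2 or 3, and the ASP call also without ASP replicate 1 or 3. The large-conductance channel Kcnma1, which shapes chromaffin cell spikes, differed by -0.20 between ASP and CON and was not called.

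**Figure D2:**
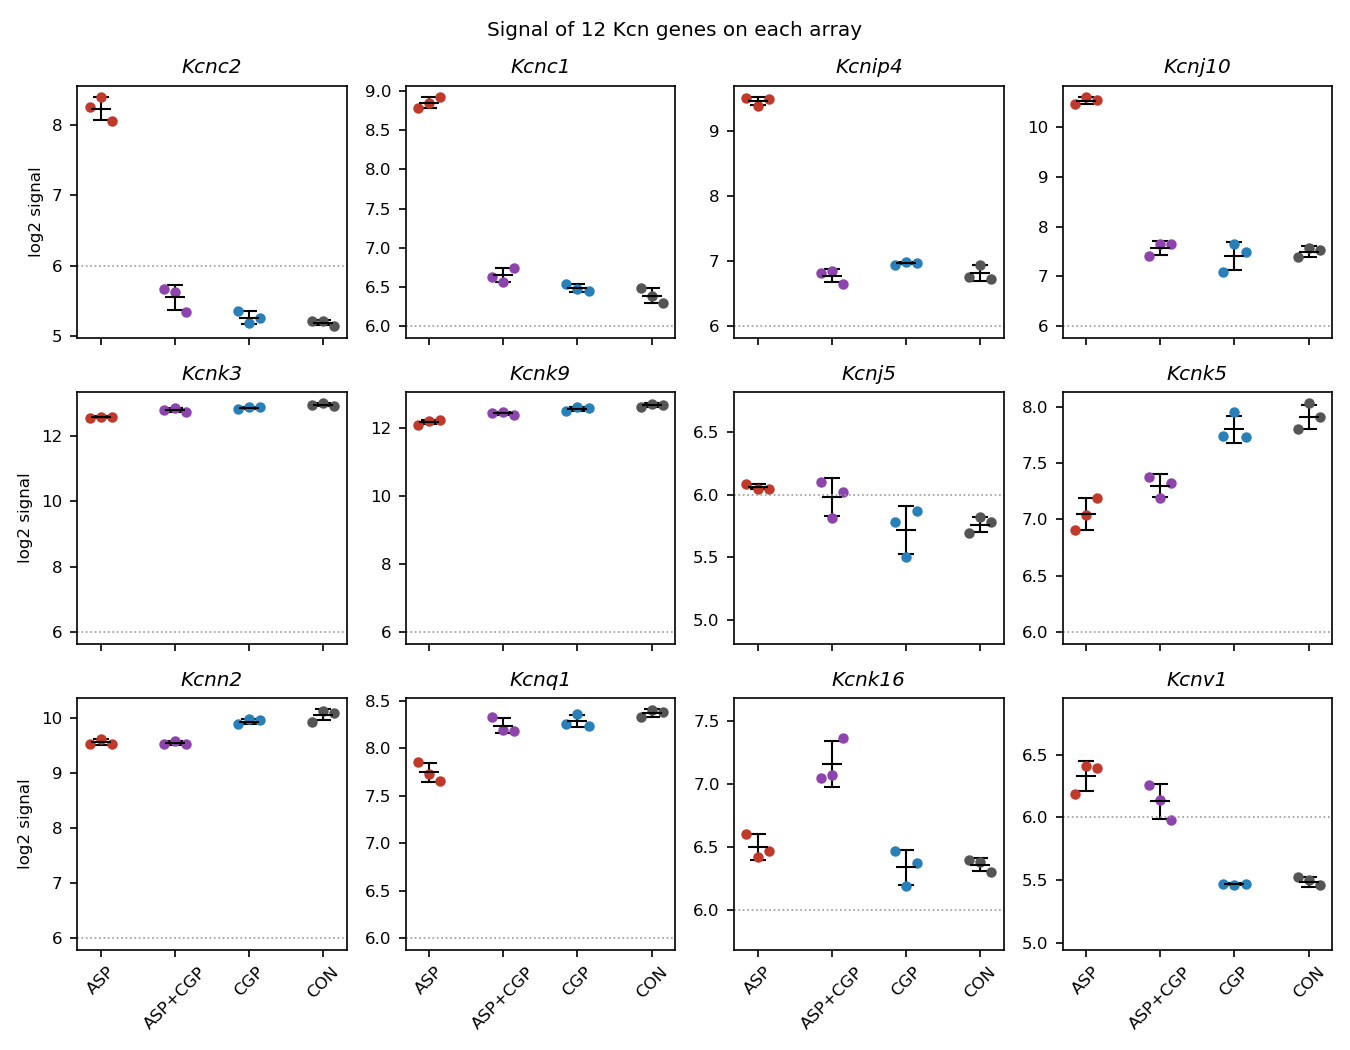
Log2 signal of 12 Kcn genes on each array, with the 4 groups along the horizontal axis; points are arrays, the bars are the mean and SD of the 3 arrays of a pool, and the dotted line marks a signal of 6. Kcnc2, Kcnc1, Kcnip4 and Kcnj10 are high only on the ASP arrays, Kcnk5 and Kcnn2 are low in both aspartame groups, and Kcnk16 is high only in ASP+CGP.

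The tandem-pore leak channels include 3 of the 4 channels listed for the adrenal cortex, and of the 13 genes of this family 2 were higher and 2 lower in ASP than in CON (median 0.09). Kcnk3, the acid-sensitive leak channel of glomerulosa cells, had signals of 12.53, 12.58 and 12.58 on the ASP arrays, 12.77, 12.84 and 12.73 on ASP+CGP, 12.81, 12.86 and 12.87 on CGP, and 12.94, 12.98 and 12.91 on CON. The ASP arrays were below all others, but the difference from CON, -0.38 ± 0.05 (SE), was 1.30-fold and below the fold minimum (adjusted p = 2.76e-05). Its partner Kcnk9 had signals of 12.09, 12.20 and 12.21 on the ASP arrays, 12.43, 12.45 and 12.36 on ASP+CGP, 12.49, 12.60 and 12.59 on CGP, and 12.60, 12.69 and 12.67 on CON. ASP was the lowest group and lay 1.4-fold below CON (log2 difference -0.49 ± 0.06 SE, adjusted p = 5.82e-06), just past the minimum. Under cyclic loess scaling this difference was -0.41 and was no longer called, and the call was also lost with median centring and trend removal and without ASP replicate 1 or CON replicate 2 or 3.

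Kcnj5, the inward rectifier in which mutations in human adrenals raise aldosterone, had signals of 6.08, 6.04 and 6.04 on the ASP arrays, 6.10, 5.81 and 6.02 on ASP+CGP, 5.78, 5.50 and 5.87 on CGP, and 5.69, 5.82 and 5.78 on CON. All 12 values lay close to the floor of 6, and with signals below 6 set to 6 the difference between ASP and CON was 0.06. Kcnk2, a mechanically gated leak channel of cortical cells, averaged 8.44 ± 0.07 in ASP and 8.30 ± 0.06 in CON (SD, n = 3 each) and was not called. Of these 4 channels of the adrenal cortex, 0 were higher and 1 was lower in ASP than in CON, and their median difference was -0.12.

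Kcnk5 had the lowest difference of all 84 genes. This alkaline-activated leak channel, known from kidney tubules, had signals of 6.91, 7.04 and 7.19 on the ASP arrays, 7.38, 7.19 and 7.32 on ASP+CGP, 7.74, 7.95 and 7.73 on CGP, and 7.80, 8.03 and 7.91 on CON. The aspartame groups lay below the others without overlap, by 1.83-fold in ASP (log2 difference -0.87 ± 0.09 SE, adjusted p = 9.72e-07) and 1.53-fold in ASP+CGP (adjusted p = 4.95e-05), each against CON. Kcnq1, a voltage-gated channel of epithelia and heart, was 1.54-fold lower in ASP than in CON, with signals of 7.86, 7.73 and 7.66 on the ASP arrays against 8.33, 8.40 and 8.38 on CON, a call that was lost with cyclic loess and trend removal. The tandem-pore genes that rose were Kcnk10 and Kcnk4, lipid- and stretch-sensitive channels of neurons. Kcnk10 had signals of 6.54, 6.82 and 6.58 on the ASP arrays and 6.07, 5.95 and 5.82 on CON, at least 1.57-fold higher. Kcnk4 had 7.80, 7.56 and 8.24 on the ASP arrays and 7.41, 7.23 and 6.92 on CON, 1.61-fold higher.

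Promoter sequences are shown for 3 of the genes with the largest rise in ASP and for Kcnk5, so that the start regions of genes that moved in opposite directions can be read side by side. Each is RefSeq sequence of GRCm38.p6, 250 bases before to 50 bases after an annotated start. A window was found for 66 of the 86 Kcn genes. Capitals mark the GC box GGGCGG on either strand, the letters bound by Sp-type factors. The windows are chr10:112269767-112270066 on the plus strand for Kcnc2, the most upstream of its 4 windows, chr7:46396218-46396517 on the plus strand for Kcnc1, chr1:172340960-172341259 on the plus strand for Kcnj10, and chr14:20181733-20182032 on the minus strand for Kcnk5.
Kcnc2: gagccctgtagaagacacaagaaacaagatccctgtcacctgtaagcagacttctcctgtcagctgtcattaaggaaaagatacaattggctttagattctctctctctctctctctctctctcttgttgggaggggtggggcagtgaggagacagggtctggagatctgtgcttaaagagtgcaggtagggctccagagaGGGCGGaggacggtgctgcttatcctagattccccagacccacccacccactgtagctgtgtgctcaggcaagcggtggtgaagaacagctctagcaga
Kcnc1: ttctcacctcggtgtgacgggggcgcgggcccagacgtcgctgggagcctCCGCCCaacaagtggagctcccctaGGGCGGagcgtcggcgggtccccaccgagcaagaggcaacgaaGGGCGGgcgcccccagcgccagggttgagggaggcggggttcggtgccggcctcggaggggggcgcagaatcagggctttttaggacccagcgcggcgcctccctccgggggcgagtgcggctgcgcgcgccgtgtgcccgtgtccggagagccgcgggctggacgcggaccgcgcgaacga
Kcnj10: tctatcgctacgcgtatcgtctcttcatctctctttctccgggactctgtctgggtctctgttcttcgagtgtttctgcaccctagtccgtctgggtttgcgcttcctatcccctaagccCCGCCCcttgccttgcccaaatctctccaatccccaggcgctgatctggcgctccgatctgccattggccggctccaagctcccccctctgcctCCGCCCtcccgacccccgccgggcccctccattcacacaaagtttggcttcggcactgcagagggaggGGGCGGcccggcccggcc
Kcnk5: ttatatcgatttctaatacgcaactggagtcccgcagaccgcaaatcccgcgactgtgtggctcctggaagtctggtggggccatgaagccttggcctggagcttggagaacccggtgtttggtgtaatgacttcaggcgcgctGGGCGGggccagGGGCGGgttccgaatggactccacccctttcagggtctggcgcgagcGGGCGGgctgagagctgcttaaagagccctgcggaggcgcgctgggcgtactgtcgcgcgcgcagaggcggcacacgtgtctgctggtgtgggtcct

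The Kcnc2 window held 1 GC box and 3 CpG dinucleotides at 52.7% G and C. The Kcnc1 window held 3 GC boxes and 41 CpG dinucleotides at 74.7%. The Kcnj10 and Kcnk5 windows held 3 GC boxes each, at 63.7% G and C in both. None of the 4 held TATAAA on either strand. A GC box was in 48.9% of the 90 Kcn windows and in 35.7% of all 32851 windows, and TATAAA was in 5.56% of Kcn windows and 13.6% of all. The Kcn windows were also richer in G and C, with a median of 58.2% against 52.7% over all windows. Their median number of CpG dinucleotides was 9, against 7 over all windows. The part of this base content in the motif shares was not tested. By gene, 20 of 29 Kcn genes higher in ASP and 21 of the 35 other tested Kcn genes with a window held a GC box. TTCAGCACC, the left arm of the element bound by the neuronal repressor REST, was in 0 of the 90 Kcn windows and in 0.371% of all windows. CAAGGTCA, the element bound by the steroidogenic factor SF-1, was in 1.11% of Kcn windows, that of Kcnf1 only, and in 1.56% of all windows. The cortical channels Kcnk3 and Kcnk9 were among the Kcn genes without a window, so they were not searched for any of these motifs.

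The contrast between neuronal and cortical channels was then set out by list. Of 36 tested genes on the list of neuronal channels, 26 were higher in ASP than in CON and 1, Kcnn2, was lower, with a median difference of 0.82, or 0.72 with signals below 6 set to 6. Of the 26, 6 had reached 6 only in ASP and could be tested only because they were higher there. Among the 27 listed genes with a CON mean of 6 or more, 18 were higher and 1 was lower, with a median of 0.77. Of the 48 Kcn genes not on that list, 9 were higher and 3 lower, with a median of 0.08, also with signals below 6 set to 6. Of the 43 with a CON mean of 6 or more, 7 were higher and 3 lower. The 9 higher were Kcna3, Kcna5, Kcna6, Kcne1l, Kcnip3, Kcnj10, Kcnj11, Kcnj13 and Kcnj16. They include Kcna6, described above as a channel of axons and nerve terminals, so genes not on the list are not all non-neuronal. On the list of glial channels 2 of 3 were higher (Kcnj10 and Kcnj16), the exception being Kcnk1 with a difference of 0.08. Of the 2, Kcnj16 had reached 6 only in ASP and could be tested only because it was higher there. Of 6 tested channels known from chromaffin cells, 2 were higher (Kcnn3 and Kcnq3) and 1 lower (Kcnn2), and these 3 genes are on the neuronal list too.

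**Figure D3:**
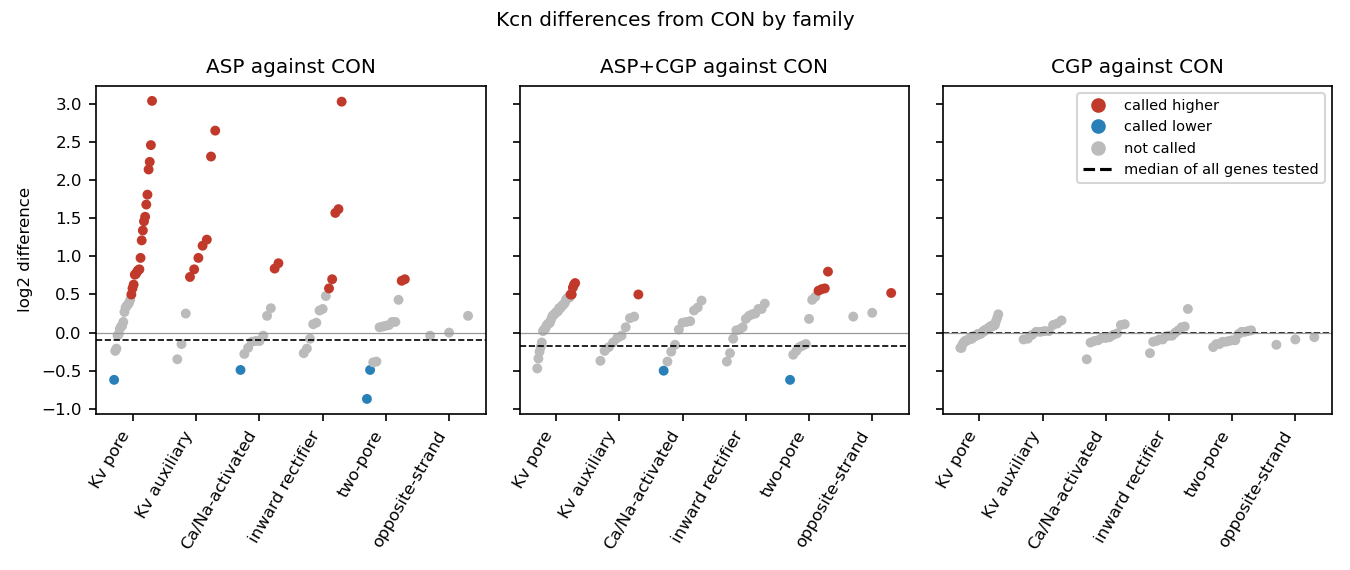
Log2 difference from CON of each tested Kcn gene, by family, in ASP, ASP+CGP and CGP; each point is a gene, red points were called higher, blue points lower and grey points neither, and the dashed line is the median of all genes tested. In ASP the voltage-gated family reaches 3.04, in ASP+CGP no gene exceeds 0.80, and in CGP no gene was called.

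Proteins that work with these channels moved in the same comparison. Of 17 tested partner proteins, 9 were higher and 1 lower in ASP than in CON (median 0.51). Dpp6 and Dpp10, transmembrane partners of Shal-type channels, had log2 differences of 1.93 and, with the CON mean of Dpp10 below 6, at least 1.07. Cntn2 and Cntnap2, which hold Shaker-type channels beside the nodes of myelinated axons, had differences of 2.22 and 1.91. Abcc9, the regulatory partner of the vascular ATP-sensitive channel, was lower by 0.55, and its pore Kcnj8 differed by -0.27 and was not called. Of 3 tested pacemaker channels 2 were higher, Hcn2 by 1.92. Of 8 tested sodium pump subunits 3 were higher and 0 lower, with a median of 0.02, and Fxyd7 and Atp1b1 had differences of 2.02 and 1.65. Of 12 tested genes of the zona glomerulosa and aldosterone production, 3 were lower (Cyp11b2, the aldosterone synthase, by 0.67, Hsd3b6 by 0.53 and Nr4a2 by 0.94) and 1, Calb1, was higher, by at least 2.41 against a CON mean below 6.

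Developmental CGP 39551 alone was compared with control next. Of the 84 Kcn genes 0 were called higher, against 1.62% of all genes tested, and 0 were called lower, against 0.0189%. Without adjustment limma gave p below 0.05 for 6 of them. The lowest difference was that of Kcnmb3, a regulatory subunit of the large-conductance channel, at 6.93, 7.22 and 7.23 on the CGP arrays and 7.43, 7.54 and 7.46 on the CON arrays. The groups did not overlap and the adjusted p was 0.0393, but the change of 1.27-fold was below the minimum. The 84 differences ran between -0.35 and 0.31, with a median of -0.04 where all genes had 0.00. The highest was that of Kcnj14, whose CGP array 3 stood apart.

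With both treatments, 11 of 84 Kcn genes were higher in ASP+CGP than in CON (13.1%), against 6.09% of all genes, and 2 were lower (2.38%), against 8.32%. The median difference was 0.19 for Kcn genes, or 0.10 with signals below 6 set to 6, and -0.17 for all genes. No rise reached 2-fold. The largest was that of Kcnk16, an alkaline-activated leak channel known from the pancreas, with signals of 7.05, 7.07 and 7.37 on the ASP+CGP arrays, against 6.40, 6.38 and 6.30 on CON. It was 1.75-fold higher (log2 difference 0.80 ± 0.09 SE, adjusted p = 1.21e-05), and its ASP signals of 6.60, 6.42 and 6.47 lay between those of ASP+CGP and CON. The silent subunit Kcng1 was 1.57-fold higher, Kcnk15 and Kcnk12 each 1.49-fold, and Kcnv2 at least 1.46-fold. The comparisons of ASP+CGP and of ASP with CON share the CON arrays, so their values are set side by side only. With CON means below 6 set to 6, Kcnv1 differed from CON by 0.13 in ASP+CGP and by 0.33 in ASP, and Kcnk10 by 0.50 in ASP+CGP and by 0.65 in ASP. Kcne1l differed by 0.50 in ASP+CGP and by 0.73 in ASP, and Kcng4 by 0.50 in each. Kcng1 differed by 0.65 in ASP+CGP and by 0.43 in ASP, where it was not called. The genes that were lower were Kcnk5 and Kcnn2. Among the cell type markers in ASP+CGP, 3 of 16 neuron markers (Nefl, Tubb3 and Gap43) and 2 of 4 tested markers of kidney epithelium (Umod and Slc34a1) were called higher than in CON, and all 11 tested hepatocyte markers were lower. The mean over the kidney markers lay between 6.99 and 7.23 on the ASP+CGP arrays and between 6.47 and 6.58 on the CON arrays, and that over the hepatocyte markers between 9.73 and 9.86 on the ASP+CGP arrays and between 11.19 and 11.24 on the CON arrays. Their part in the Kcn values was not tested.

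The differences between ASP+CGP and CON followed the signal level over all genes. The median difference was 0.25 for genes with a CON signal of 6 to 7 and -0.34 for genes with one of 9 to 10. The interquartile range of the signals was 2.20 to 2.29 on the ASP+CGP arrays and 2.58 to 2.62 on the CON arrays. The Kcn genes at those levels had medians of 0.23 (30 genes) and -0.29 (3 genes). At 7 to 8 the Kcn median was 0.22 (22 genes), where all genes had -0.06. At 8 to 9 it was -0.15 (11 genes), where all genes had -0.26. By level, the calls higher in ASP+CGP were 3 of 14 Kcn genes under 6, where 18.1% of all genes were higher, 3 of 30 at 6 to 7, where 14.7% were, 4 of 22 at 7 to 8, where 7.7% were, and 1 of 11 at 8 to 9, where 1.83% were. When that trend with level was removed from each array, the calls of Kcne1l, Kcng4, Kcnk10, Kcnv1, Kcnv2 and Kcnn2 in ASP+CGP against CON were lost, while those of Kcnk16, Kcng1, Kcnk12, Kcnk15, Kcns3, Kcnd3os and Kcnk5 were kept.

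**Figure D4:**
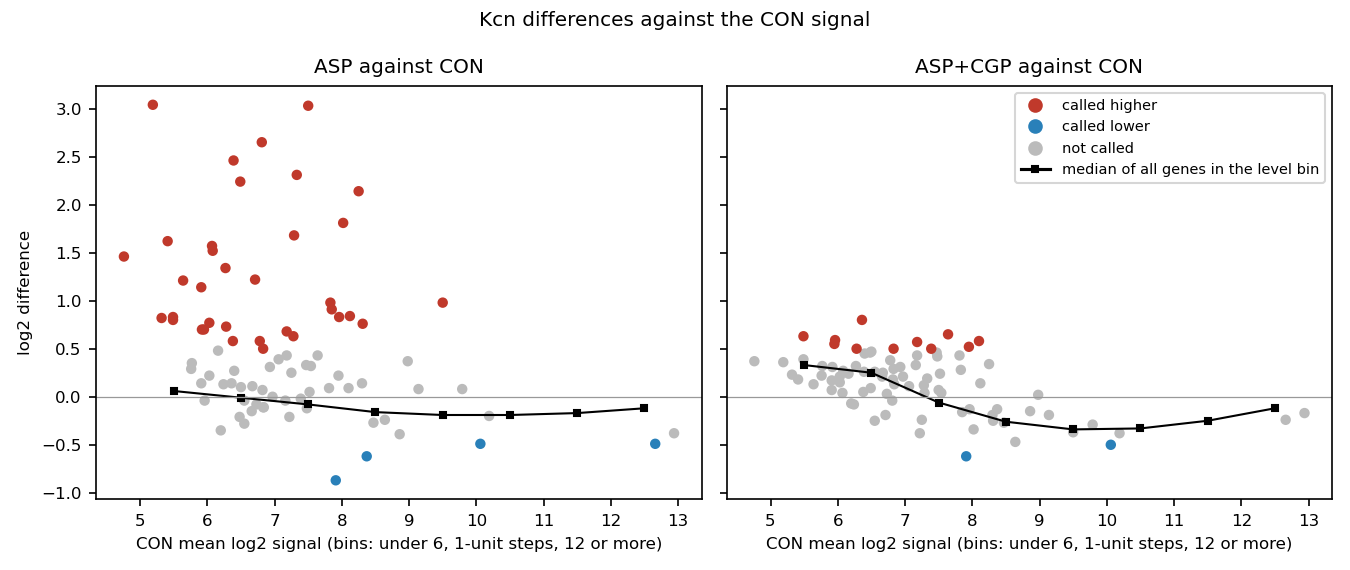
Log2 difference from CON of each tested Kcn gene (points) against its CON signal, for ASP and ASP+CGP; the line with squares is the median of all genes in each bin of CON signal, from under 6 to 12 or more. In ASP many Kcn genes lie far above the line, while in ASP+CGP most lie near it, and the line itself falls from 0.33 in the lowest bin to -0.34 at 9 to 10.

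ASP+CGP was also set against ASP, to ask how developmental CGP 39551 bore on the aspartame group. In this comparison 27 of 84 Kcn genes were lower in ASP+CGP (32.1%), against 13.3% of all genes, and 7 were higher (8.33%), against 6.55%. Of the lower genes, Kcna4, Kcnc2, Kcnh5, Kcnh7, Kcnip2 and Kcnj16 could be tested only because they reached 6 in ASP. Of the higher genes, Kcnv2 reached 6 only in ASP+CGP. Among the 70 Kcn genes with a CON mean of 6 or more, 21 were lower (30%) and 6 higher (8.57%). The shares over all genes with such a CON mean were not computed for this comparison. This comparison shares the ASP arrays with that of ASP and CON. Kcnj10 was 7.78-fold, Kcnip4 6.44-fold and Kcnc2 at least 4.70-fold lower in ASP+CGP than in ASP. Kcnk4, with 7.85, 7.34 and 7.65 on the ASP+CGP arrays and 7.80, 7.56 and 8.24 on the ASP arrays, overlapped between the groups. Kcng4 averaged 7.33 in both. The 7 genes higher in ASP+CGP than in ASP were Kcna7, Kcnk16, Kcnv2, Kcnmb3, Kcns3, Kcnk15 and Kcnq1. The first 5 of these calls were lost with cyclic loess and with trend removal, and those of Kcns3, Kcnk15 and Kcnq1 when single ASP or ASP+CGP arrays were left out. Kcnq1, with 8.33, 8.19 and 8.18 on the ASP+CGP arrays against 7.86, 7.73 and 7.66 on ASP, stood at 8.33, 8.40 and 8.38 on CON.

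The interaction of the treatments, which asks whether the aspartame difference with CGP 39551 departed from that without it, was called for 32 Kcn genes. It was negative for 24 (28.6%), against 15.5% of all genes, and positive for 8 (9.52%), against 9.02%. Among the 70 Kcn genes with a CON mean of 6 or more, it was negative for 19 (27.1%) and positive for 7 (10%). The shares over all genes with such a CON mean were not computed for the interaction. The interaction uses the ASP and CON arrays again, so it is not separate from the rises in ASP. Kcnj10 (-2.87 ± 0.17 SE), Kcnip4 (-2.84 ± 0.10) and Kcnc2 (-2.76 ± 0.13) had the lowest values. That of Kcnc2 rests on signals below 6 in every group but ASP. Kcnmb3 had the highest (0.89 ± 0.12). The cortical channels Kcnk3 and Kcnk9 had interactions of 0.31 and 0.35, below the fold minimum, with adjusted p of 0.00361 and 0.00341. Kcnk5 and Kcnn2, lower in both aspartame groups than in CON, had none that was called.

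Of the 84 Kcn genes 35 were called in none of the 5 comparisons. Counted by arrays alone, 54 Kcn genes had all ASP arrays above all CON arrays and 12 had them all below, while 20.6% of all genes tested were above and 43% below. For ASP+CGP against CON these were 41 above and 17 below, with 22.8% and 52.5% of all genes.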

How the data were processed

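Adrenal RNA was pooled within each of 4 groups by the authors and hybridised to 3 Affymetrix Mouse Gene 1.0 ST arrays per pool. The deposited files hold 1 log2 signal for each probe set and array. According to the labels and methods the authors computed these in Partek by robust multi-array averaging, that is background correction, quantile normalization and median polish. Every one of the 26533 deposited probe sets reached 6 on at least 1 array. The genome build is not given in the sources used here. Arrays give no read depth, and their number limits the precision.

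Probe sets were named through the platform annotation, in which 17710 had 1 gene symbol, 1077 several and 7746 none, and only the first kind was used. Where a gene had several such probe sets, the one brightest on average over the 12 arrays was kept, and 344 genes with no group mean of 6 or more were left out. Group means were fitted with limma 3.58.1 in R 4.3.3 (lmFit and eBayes) on all 12 arrays, and p-values were adjusted by Benjamini-Hochberg over 15900 genes within each contrast. No probe set's level was set against another's. The fitting steps were tested on simulated data.

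The members and lists were chosen with earlier results of these data known. Any Kcn gene could be named. Values per array were given for 3 channels of the cortex list, for up to 4 called members of each family among those with the largest ASP difference, and for those called lower. Kcnd2, which ranked below these, was added after its values were seen. Other genes came from lists of partner proteins, pumps, aldosterone genes and cell type markers. The alternatives tried were other scalings, filters, fold minimums, probe set rules, moderation, array weights, a replicate block and leaving out each array. Replicate numbers were not used to pair the arrays in the main fit. Promoter windows and motifs were read from RefSeq GRCm38.p6.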

Additional observations from a re-analysis of the deposited data

Results flagged for a closer look

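For 32 of the 84 Kcn genes the aspartame difference with CGP 39551 (ASP+CGP against CGP) departed from that without it (ASP against CON), by limma's test of the interaction and the 1.4-fold minimum. The values below are the log2 difference with CGP 39551 minus that without it, over 3 arrays a group.

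For 24 genes the interaction was negative, and each of them had been called higher in ASP than in CON. The interaction uses the same ASP and CON arrays, so a high ASP signal in these 24 genes enters both results. Their match is therefore not separate evidence. The pore-forming voltage-gated genes among them gave interactions of Kcnc2 -2.76, Kcnc1 -2.30, Kcna6 -2.11, Kcnd2 -2.10, Kcna2 -1.95, Kcna1 -1.72, Kcnq5 -1.45, Kcna4 -1.18, Kcnh1 -1.06, Kcnh5 -1.02, Kcnd3 -0.93, Kcna3 -0.68 and Kcnf1 -0.61. The auxiliary subunits gave Kcnip4 -2.84, Kcnab2 -2.13, Kcnab1 -1.53, Kcnip3 -1.26, Kcnip2 -1.08 and Kcnip1 -0.98. The inward rectifiers and the calcium- or sodium-activated channels gave Kcnj10 -2.87, Kcnj3 -1.41, Kcnj16 -1.39, Kcnt1 -1.17 and Kcnn3 -0.63. Adjusted p ran between 1.85e-11 for Kcnip4 and 0.0205 for Kcnf1. Kcna4, Kcnc2, Kcnh5, Kcnip2 and Kcnj16 had means below 6 in every group but ASP, and could be tested only through ASP. Their interactions rest on signals below 6 and are not bounded here. The Kcnf1 value was lost without ASP replicate 1 or 2, ASP+CGP replicate 1 or CON replicate 2, where it lay between -0.55 and -0.47, and the dimmer probe set of Kcna2 gave -0.48.

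For 8 genes it was positive, with interactions of Kcnmb3 0.89, Kcnk16 0.68, Kcnk15 0.64, Kcnv2 0.64, Kcns3 0.62, Kcna7 0.60, Kcnq1 0.57 and Kcnk7 0.49. Adjusted p ran between 3.4e-05 for Kcnmb3 and 0.00482 for Kcnk15. Kcnv2 is likewise not bounded, with means below 6 in every group but ASP+CGP. Of these, Kcna7, Kcnk16, Kcnk7 and Kcnv2 were not called under cyclic loess scaling, with 0.37, 0.45, 0.26 and 0.36. The Kcnk7 value was also lost with array weights and without ASP replicate 2, ASP+CGP replicate 1, CGP replicate 1 or 2, or CON replicate 2, where it lay between 0.42 and 0.48. Kcnq1 averaged 8.24 in ASP+CGP against 8.29 in CGP, and 7.75 in ASP against 8.37 in CON. Markers of neurons, oligodendrocytes and astrocytes had negative interactions in 16 of 16, 10 of 10 and 9 of 9 genes. These too use the ASP and CON arrays again, so they are not separate from the marker rises in ASP. Nefm, Sv2b, Ermn, Opalin, Ugt8a and Gjb6 reached 6 only in ASP and could be tested only through it. The part of these markers in the Kcn values was not tested.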

How the results depend on the processing

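The 35 higher calls in ASP against CON ranged between 26 and 48 under the alternatives other than a 1.8-fold minimum, which left 20. The 4 lower calls were 2 with median centring, 1 with cyclic loess, 1 with removal of the trend with signal level, 1 with a 1.8-fold minimum and 11 with no fold minimum. Kcnk9 and Kcnn2 were lost with each of these scalings and without ASP replicate 1, CON replicate 2 or CON replicate 3, Kcnn2 also without ASP replicate 3, and Kcnq1 with cyclic loess and trend removal. Leaving out each array in turn gave 34 to 37 higher and 2 to 4 lower calls. Without ASP replicate 1, or without CON replicate 1, Kcng4 was lost, and without CON replicate 3 Kcna5 was lost. In CGP against CON the count of lower calls was 1 with no fold minimum.

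In ASP+CGP against CON the 11 higher calls were 18 with median centring, 0 with a 1.8-fold minimum and 43 with none, and the 2 lower calls 1 with median centring, 1 with cyclic loess, 1 with trend removal, 0 with a 1.8-fold minimum and 18 with none. Without single arrays the lower calls numbered 1 to 3, with 1 left without CON replicate 3. Leaving out single ASP+CGP or CON arrays ended the calls of Kcnd3os, Kcne1l, Kcng4, Kcnk10, Kcnk12, Kcnn2, Kcns3 and Kcnv2. In ASP+CGP against ASP the 7 higher calls were 2 with cyclic loess, 2 with trend removal, 0 with a 1.8-fold minimum, 23 with none, and 4 to 7 without single arrays, with 4 left without ASP replicate 2. The 8 positive interactions were 5 with a group mean of 7 or more required, 4 with cyclic loess, 4 with trend removal, 1 with a 1.8-fold minimum and 20 with no minimum. No result reversed under any setting run, and the cause of these shifts was not tested.

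Cyclic loess moved the median difference of all genes in ASP against CON to 0.01, with -0.10 as deposited, and in ASP+CGP against CON to -0.01, with -0.17 as deposited. The share of higher calls among all calls was 54.7% in ASP against CON as deposited, 80.1% with cyclic loess and 79.9% with trend removal. In ASP+CGP against CON it was 42.3% as deposited, 57.6% with cyclic loess, 56.3% with trend removal and 70.1% with median centring. In ASP+CGP against ASP it was 32.9% as deposited, 19.2% with cyclic loess, 18.9% with trend removal and 43.3% with median centring, and for the interaction 36.7%, 23.1%, 22.7% and 47.2%.

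With the replicate number as a block the counts stayed at 35 and 4, 11 and 2, 7 and 27, and 8 and 24. Deviations of same-numbered arrays correlated between -0.15 and 0.38, above 0.1 in 8 of 18 pairs. Of the 12 arrays, 7 had their highest correlation with an array of the same number in another group. Whether arrays of the same number shared a step was not tested. Signals near 6 limit the fold changes of the 14 Kcn genes with a CON mean below 6.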
